A study of Mus musculus with 6 samples.

Results

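The G1 regulators followed here across the RNA-seq libraries of the study were the D-type cyclins Ccnd1, Ccnd2 and Ccnd3, the E-type cyclin Ccne1, the kinase genes Cdk4 and Cdk6, and the inhibitor genes Cdkn1a, Cdkn1b, Cdkn2a and Cdkn2b. They were taken by symbol, and all 10 were present among the 25078 genes of the deposited tables. The question was how these genes stood in cells with less midnolin, since the study describes slower growth of its midnolin knockdown clones. The libraries were made after ribosomal RNA depletion from Hepa1-6, an established mouse hepatoma line that arose in the C57/L strain. One library came from untreated parental cells (wt), 2 from cells that received a scramble vector by lentivirus (scr 25-2 and scr 50-1), and 3 from cells that received a midnolin shRNA vector in the same way (knockdown 25-3, 50-2 and 50-5). The transduced cells of both kinds were selected with puromycin, and colonies grown from single cells were isolated by limiting dilution, so a library may stand for 1 clone and not for the whole transduced population. The titles of the knockdown libraries read KO, and the treatment label, which names the shRNA vector, was followed here. The study describes its RNA-seq as a comparison of the knockdown clones sh1 and sh2 with a scramble control. The sources used here do not name the clone behind each library or explain the numbers 25 and 50, so knockdown libraries may share a clone. The p-values below therefore measure only the spread between these libraries.

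The gene counts of a library summed to between 25586301 and 33119710. Midn, which the shRNA targets, had an RPKM (reads scaled for exon length and for library size) of 60.5 in wt, 59.6 and 50.8 in the scr libraries, and 20.3, 21.8 and 22.1 in the knockdown libraries. All knockdown libraries were below both scr libraries, and the log2 fold change of -1.38 (standard error 0.133) passed the edgeR quasi-likelihood test after Benjamini-Hochberg adjustment (FDR 0.00777, n = 3 against 2 libraries). Midn was called in 13 of 14 alternatives, and without knockdown 50-2 its log2 fold change of -1.38 missed the threshold (FDR 0.0525, the same edgeR test). Of 11 hepatocyte markers, 10 were present in the tables and 6 exceeded 1 RPKM in every library, Hnf4a and Foxa2 among them, while Apoh and Serpina1a stayed at or under 1 RPKM in all. The summed level of the hepatocyte markers lay between 2260 and 3390 RPKM in the scr libraries and between 124 and 716 in the knockdown libraries. Alb went from 1880 and 2800 RPKM in scr to 336, 62.7 and 20.9 in knockdown 25-3, 50-2 and 50-5, whereas Hnf4a had 33.9 and 11 in scr and 65.5, 65.4 and 29.6 in knockdown. The part of these differences in the results below was not tested. Of 6 leukocyte markers, 5 were at or under 1 RPKM in every library, Ptprc and Cd3e among them, but the macrophage marker Cd68 had 3.02 and 4.53 RPKM in scr and 6.22, 6.88 and 9.21 in knockdown. The sum of the leukocyte markers was 3.26 to 4.66 RPKM in scr and 6.85 to 9.88 in knockdown, without overlap. Of 6 endothelial markers, 5 were at or under 1 RPKM in every library, and Pecam1 exceeded it only in wt, at 2.85. The sum of 4 cholangiocyte markers overlapped between the groups (35.4 to 57.1 RPKM in scr and 34.4 to 50.5 in knockdown), with Krt19 at or under 1 in every library and Krt7 at 21.3 and 13.9 in scr and 0.858 to 2.15 in knockdown. Of 8 fibroblast or stellate markers, 5 were at or under 1 RPKM in every library, Col1a1, Col1a2 and Col3a1 among them, and Dcn had between 409 and 1030. Pdgfra had 0.308 and 0.167 RPKM in scr, 2.7, 1.9 and 1.58 in knockdown, and 1.93 in wt, so that its scr and knockdown libraries did not overlap. The part of these markers in the results was likewise not tested.

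In G1, D-type cyclins rise in response to growth signals and activate the kinases CDK4 and CDK6, which begin to phosphorylate the retinoblastoma protein. Cyclin E with CDK2 completes this step, E2F transcription factors are released, and the genes for DNA replication are switched on. Inhibitors of the INK4 family, which Cdkn2a and Cdkn2b belong to, bind CDK4 and CDK6 and keep D cyclins away, while the CIP/KIP inhibitors p21 (Cdkn1a) and p27 (Cdkn1b) bind complexes of cyclin and kinase and restrain CDK2 above all. Cdkn2a is unusual in that it encodes 2 unrelated proteins, p16Ink4a, which inhibits CDK4 and CDK6, and p19Arf, which stabilises p53 by holding back Mdm2. In the liver, cyclin D1 is known for its rise when resting hepatocytes re-enter the cell cycle.

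One of the 10 genes stood out. Cdkn2a was low in wt and scr cells and 14.2-fold higher in knockdown cells, and no other member passed the test (an FDR under 0.05 with a fold change of at least 1.5). The promoters of Cdkn2a and of its neighbour Cdkn2b are shown here because these genes had the largest fold changes among the members in the main fit. Cdkn2b was only just ahead of Cdk6 there (log2 fold change 0.518 against 0.513), and behind it in some alternatives, both limma fits among them. The other reasons are that Cdkn2a and Cdkn2b lie side by side on chromosome 4, and that the deposited tables give 1 count for both products of Cdkn2a. RefSeq (GRCm38.p6, the build of the files) gives Cdkn2a a start site at position 89294619 of chromosome 4, the upstream one, from which p19Arf is made, and another at 89282192, from which p16Ink4a is made. All 3 windows run on the minus strand from 250 bases before the start site to 50 bases after it, at chr4:89294570-89294869, chr4:89282143-89282442 and chr4:89310983-89311282. They are written 5′ to 3′ in lower case, with each GC box (GGGCGG on either strand) in capitals.
Cdkn2a upstream start: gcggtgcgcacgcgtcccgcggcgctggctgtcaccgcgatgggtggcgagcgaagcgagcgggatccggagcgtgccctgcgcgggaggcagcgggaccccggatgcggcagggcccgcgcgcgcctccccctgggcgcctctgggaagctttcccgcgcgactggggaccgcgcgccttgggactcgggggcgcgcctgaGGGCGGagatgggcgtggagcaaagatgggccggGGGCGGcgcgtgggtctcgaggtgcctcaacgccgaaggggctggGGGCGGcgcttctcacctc
Cdkn2a downstream start: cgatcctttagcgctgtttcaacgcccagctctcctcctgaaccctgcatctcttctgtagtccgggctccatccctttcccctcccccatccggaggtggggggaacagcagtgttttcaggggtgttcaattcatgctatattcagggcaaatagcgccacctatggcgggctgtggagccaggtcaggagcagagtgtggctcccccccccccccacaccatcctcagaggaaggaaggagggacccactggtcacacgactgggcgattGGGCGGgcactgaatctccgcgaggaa
Cdkn2b: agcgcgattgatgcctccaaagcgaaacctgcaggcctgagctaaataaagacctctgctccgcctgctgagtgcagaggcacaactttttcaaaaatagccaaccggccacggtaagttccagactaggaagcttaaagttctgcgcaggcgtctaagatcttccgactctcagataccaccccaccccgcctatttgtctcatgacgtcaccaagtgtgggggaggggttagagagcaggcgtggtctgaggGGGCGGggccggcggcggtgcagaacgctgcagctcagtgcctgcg
The upstream Cdkn2a window held 3 GC boxes and had a GC content of 77.0%, and the downstream Cdkn2a window and the Cdkn2b window held 1 GC box each, at 60.3% and 57.7% GC. A GC box was present in 35.7% of 32851 promoter windows of the same length. None of the 3 windows held the E2F motif in either of the forms searched, TTTCGCGC and TTTGGCGC on both strands. These forms occurred in 0.813% of all windows. Other forms of the motif were not searched, and another form, tttcccgc, is among the letters of the upstream Cdkn2a window. The TATA box, TATAAA on both strands, was not among the letters of any of the 3 windows and was found in 13.6% of all windows. Promoter windows were present for 8 of the 10 members.

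Transcripts of either product of Cdkn2a would enter its count. In the GENCODE M21 annotation Cdkn2a has 2 protein-coding transcripts, which start at position 89282192, the downstream RefSeq site, and at 89294653, a different position from the upstream RefSeq site at 89294619, and of their exonic bases 575 are shared, 320 belong to the upstream transcript only and 277 to the downstream one. A gene-level count therefore does not say which product a change concerns. Cdkn2a (chromosome 4 of mm10, 89274473 to 89294619, minus strand) had 57 counts in wt, 62 in scr 25-2 and 44 in scr 50-1, against 719, 782 and 1053 in knockdown 25-3, 50-2 and 50-5. Its RPKM was 1.92 in wt, 1.85 and 1.36 in the scr libraries, and 20.0, 21.3 and 28.0 in the knockdown libraries. Every knockdown library thus lay far above both scr libraries and the parental library, and wt lay close to scr.

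Cdkn2a rose by a log2 fold change of 3.83 in knockdown against scr (standard error 0.294, n = 3 against 2), with an adjusted p (FDR, Benjamini-Hochberg) of 0.00573 in the edgeR quasi-likelihood test. This was a 14.2-fold rise with a 95% confidence interval of 8.6 to 23.6. Among the 11577 genes tested, which exceeded 1 RPKM in 1 or more of the 5 compared libraries, 181 had a larger log2 fold change and 34 a smaller p-value. Cdkn2a passed this filter in the scr libraries as well as in the knockdown libraries. It was called in all 14 alternatives, with log2 fold changes between 3.20 and 4.09 and an FDR of at most 0.0373. Of all genes tested, 10.6% were called (625 up and 605 down), and of the 9 members tested 1 was called.

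**Figure D1:**
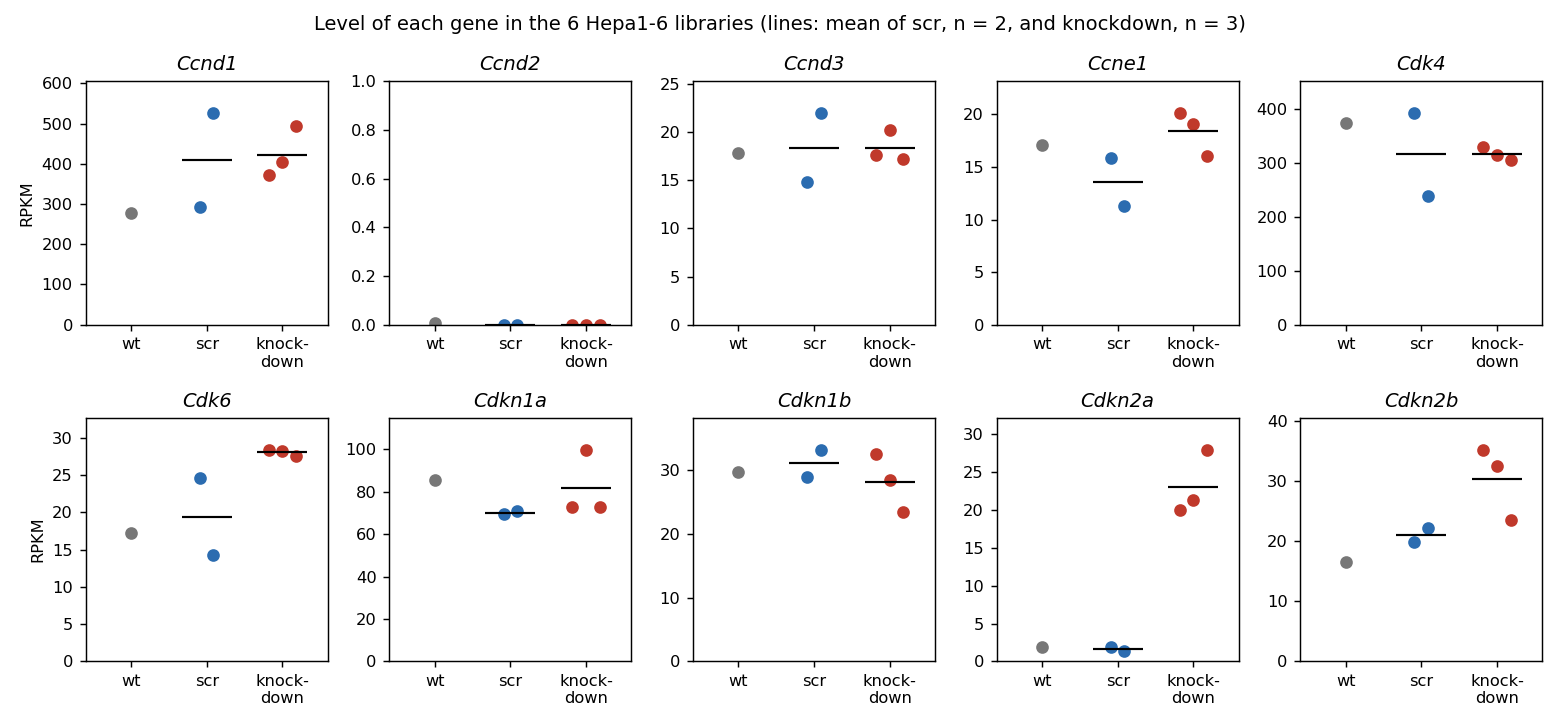
RPKM (vertical axis, from 0) of the 10 genes in wt (grey, 1 library), scr (blue, 2 libraries) and knockdown (red, 3 libraries), with a line at the mean of scr and of knockdown. Cdkn2a sits between 20.0 and 28.0 RPKM in knockdown and at or under 1.92 elsewhere, the 2 scr points of Ccnd1, Cdk4 and Cdk6 lie far apart, and Ccnd2 is at or next to 0 in every library.

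Cdkn2b, which encodes the CDK4 and CDK6 inhibitor p15Ink4b, lies 24.1 kb from Cdkn2a between the centres of both genes (chromosome 4, 89306289 to 89311032). Its RPKM was 16.5 in wt, 19.9 and 22.2 in the scr libraries, and 35.2, 32.5 and 23.5 in knockdown 25-3, 50-2 and 50-5. All 3 knockdown libraries were above both scr libraries, but knockdown 50-5, which had the most Cdkn2a, was only slightly above scr 50-1. The log2 fold change was 0.52 (standard error 0.205, 95% confidence interval 0.011 to 1.02) and did not pass the test (FDR 0.153, edgeR quasi-likelihood test, n = 3 against 2). Over the 14 alternatives it stayed between 0.40 and 0.67 and was called in 0, with an FDR from 0.0711 to 0.353. Gm12610, an antisense transcript that spans Cdkn2b, had 13 counts in wt, 18 and 21 in scr, and 36, 30 and 61 in knockdown 25-3, 50-2 and 50-5. Cdkn2b had 600 to 1551 counts. Whether the counting used strand is not given in the sources used here, and the part of Gm12610 in the Cdkn2b value was not tested.

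The rise of Cdkn2a was compared with its surroundings. Within 5 Mb on either side, 16 other genes were tested, and their median log2 fold change was 0.285, beside -0.00975 over all genes tested. The medians of windows of the same size around the members on other chromosomes ranged from -0.288 (Cdk4) to 0.288 (Cdkn1b). Of the 16 genes around Cdkn2a, 2 were called, both upward, beside 10.6% called among all genes tested. They were Haus6, a subunit of the augmin complex of the mitotic spindle, with a log2 fold change of 1.06 (FDR 0.0147, edgeR quasi-likelihood test) at -2689.1 kb from the centre of Cdkn2a (negative towards lower coordinates), and Wincr1, a long noncoding RNA, with 0.97 (FDR 0.0464) at -217.1 kb, and both were chosen after their values were seen. Mtap, the methionine salvage enzyme next to Cdkn2a, had 67.2 and 90.2 RPKM in scr and between 103 and 113 in knockdown, a log2 fold change of 0.44 that did not pass the test (FDR 0.133, edgeR quasi-likelihood test). Its groups did not overlap, and its level in wt was 77.0 RPKM. Without scr 50-1 Mtap was called (log2 fold change 0.67, FDR 0.0485, the same edgeR test), and without scr 25-2 its log2 fold change was 0.26. Dmrta1, the next protein-coding gene beyond Cdkn2b, had at most 1 count in any library. Mtap, Cdkn2a and Cdkn2b all had reads in every library.

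**Figure D2:**
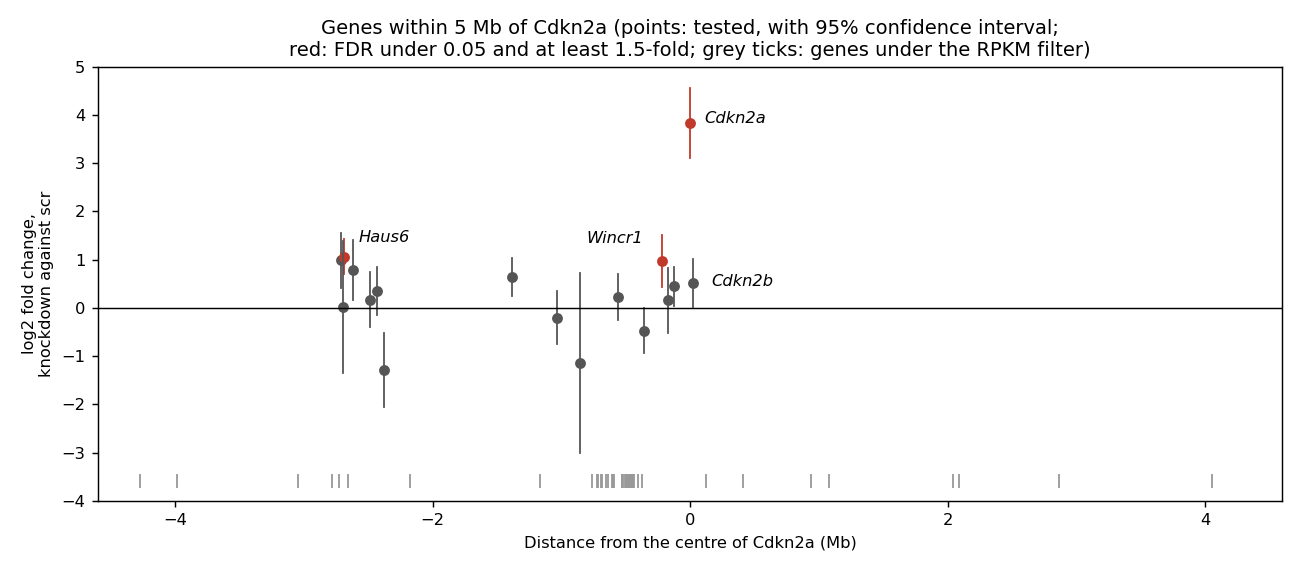
Log2 fold change of knockdown against scr (vertical axis, with 95% confidence interval) of the genes within 5 Mb of Cdkn2a, by distance from its centre (horizontal axis, Mb), red where called and grey ticks for genes under the RPKM filter. Cdkn2a, at 3.83, stands above every other tested gene of the window, of which the highest is Haus6 at 1.06.

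The remaining INK4 genes, Cdkn2c (p18Ink4c) and Cdkn2d (p19Ink4d), were not called. Cdkn2c had 31.5 and 20.3 RPKM in scr and 15.2, 13.7 and 14.2 in knockdown, with 20.5 in wt. All knockdown values were below both scr values, and the log2 fold change was -0.87 (standard error 0.211), which missed the threshold (FDR 0.0557, edgeR quasi-likelihood test), and over the alternatives Cdkn2c was called by DESeq2 (FDR 0.00507), with wt added to the controls (FDR 0.0477) and without scr 50-1 (log2 fold change -1.15, FDR 0.014), while without scr 25-2 its log2 fold change was -0.50 (FDR 0.0787). Cdkn2d had 7.70 and 9.54 RPKM in scr and between 6.09 and 8.92 in knockdown, with overlapping groups.

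Summed over the 4 INK4 genes, the level was 47.5 RPKM in wt, 61.0 and 53.3 in scr, and 77.3, 76.4 and 71.7 in knockdown. On CPM, which are not scaled for length, the sum was 113 and 86.3 in scr and 118, 109 and 104 in knockdown, so that the groups overlapped. On RPKM, Cdkn2a made up 4.05% of that sum in wt and 3.04% and 2.55% in scr, and 25.9%, 27.9% and 39.1% in knockdown. The Cdkn2a share did not overlap between the groups on either scale, whereas the Cdkn2b share on RPKM did, with 32.6% and 41.6% in scr and 45.6%, 42.5% and 32.7% in knockdown. The Cdkn2a count would also include any transcripts of p19Arf, which is no INK4 inhibitor.

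**Figure D3:**
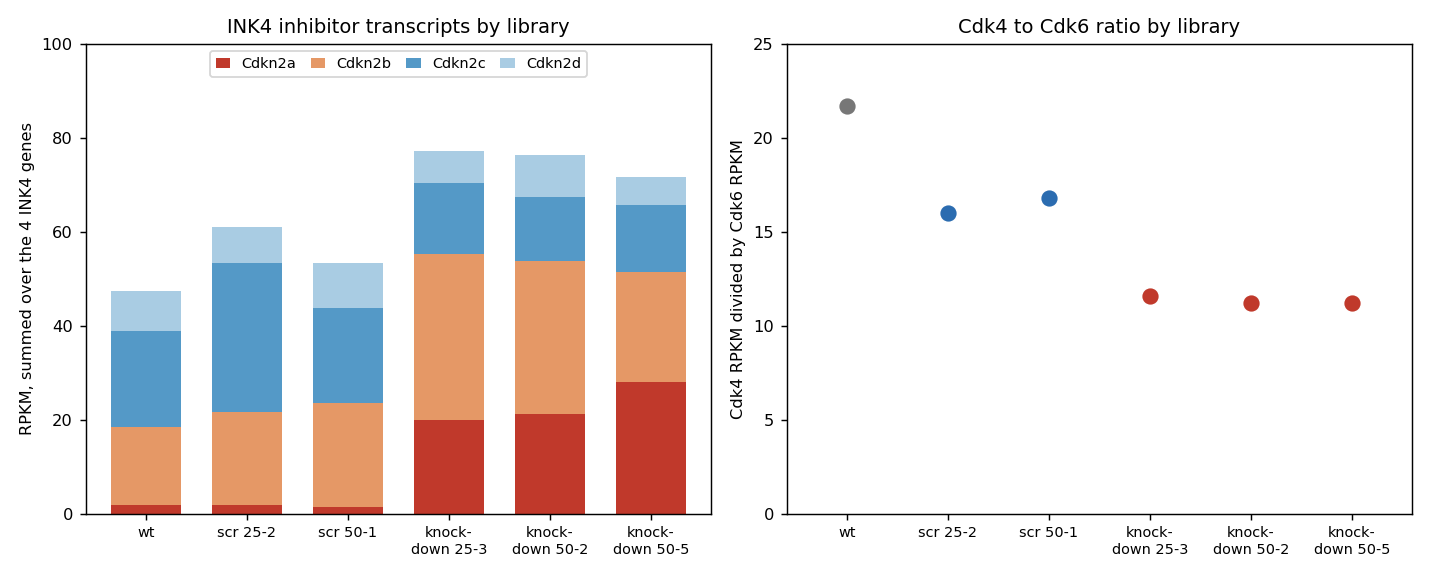
Left, RPKM of the 4 INK4 genes stacked by library (vertical axis from 0), and right, the RPKM of Cdk4 divided by that of Cdk6 in each library (grey wt, blue scr, red knockdown). The Cdkn2a part grows from at most 4.05% to at least 25.9% of the INK4 sum, and the ratio lies at 11.2 to 11.6 in knockdown and at 16.0 to 16.8 in scr.

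The targets of the INK4 proteins were expressed at very different levels. Cdk4 (chromosome 10, 127063535 to 127067288) had 375 RPKM in wt, 393 and 239 in scr, and 331, 314 and 307 in knockdown. The scr libraries differed 1.64-fold and lay on either side of all knockdown libraries. The log2 fold change was -0.010 (standard error 0.227, 95% confidence interval -0.57 to 0.55, FDR 0.983, edgeR quasi-likelihood test, n = 3 against 2), and it was 0.41 without scr 25-2 and -0.32 without scr 50-1.

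Cdk6 (chromosome 5, 3343893 to 3531005) was lower per length, with 17.3 RPKM in wt, 24.6 and 14.3 in scr, and 28.4, 28.2 and 27.5 in knockdown. The knockdown libraries were nearly level with one another and above both scr libraries, which differed 1.73-fold. The log2 fold change was 0.51 (standard error 0.245, 95% confidence interval -0.092 to 1.12, FDR 0.213, edgeR quasi-likelihood test, n = 3 against 2). This result turned on the scr library. Without scr 25-2 the log2 fold change was 0.98 and Cdk6 was called (FDR 0.0128), and without scr 50-1 it was 0.17 (FDR 0.432), while the FDR ranged from 0.0128 to 0.432 over the 14 alternatives.

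Although Cdk4 and Cdk6 each varied between the scr libraries, they varied together. The RPKM of Cdk4 was 16.0 times that of Cdk6 in scr 25-2 and 16.8 times in scr 50-1, against 11.6, 11.2 and 11.2 times in the knockdown libraries and 21.7 times in wt. The ratio was thus lower in every knockdown library than in either scr library, and the scr libraries differed less from each other in it than in the level of either gene. Whether this exceeds chance was not tested, since the ratio was chosen with earlier results of these data known and 3 against 2 libraries allow no exact one-sided permutation p under 0.1.

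Of the D-type cyclins, Ccnd1 carried nearly all of the transcript level. Ccnd1 (chromosome 7, 144929931 to 144939925) had 277 RPKM in wt, 294 and 527 in scr, and 371, 404 and 493 in knockdown. All knockdown values lay between the scr values, which differed 1.79-fold. Its log2 fold change was 0.033 (standard error 0.278, 95% confidence interval -0.65 to 0.72, FDR 0.952, edgeR quasi-likelihood test, n = 3 against 2), with -0.32 without scr 25-2 and 0.51 without scr 50-1. Averaged over the 6 libraries, 99.5% of the genes tested had a lower level than Ccnd1, and 99.3% a lower level than Cdk4.

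Ccnd3 (chromosome 17, 47505051 to 47599688) had 17.9 RPKM in wt, 14.8 and 22.0 in scr, and 17.6, 20.2 and 17.2 in knockdown. Its groups overlapped, and the log2 fold change was -0.016 (standard error 0.20, 95% confidence interval -0.51 to 0.48). Ccnd2 (chromosome 6, 127125709 to 127151048) had 1 count in wt and 0 in each of the other 5 libraries, so it was not tested, and no difference was detectable at this depth. Ccnd1 made up between 93.9% and 96.6% of the summed RPKM of the D cyclins in the 6 libraries, and Ccnd3 between 3.37% and 6.06%. Hepa1-6 cells of all 3 groups had the same order of D cyclin levels per length, Ccnd1 above Ccnd3 above Ccnd2. Ccnd1 overlaps LTO1 over 818 bases and Ccnd3 overlaps Bysl over 358 bases, in both cases on the opposite strand, and reads there cannot be assigned with certainty. Bysl had 1159 and 1248 counts in scr and 2346, 2030 and 1983 in knockdown, and its part in the Ccnd3 value was not tested.

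Ccne1, the cyclin that activates CDK2 at the end of G1 (chromosome 7, 38097984 to 38107490), had 17.1 RPKM in wt, 15.9 and 11.3 in scr, and 20.2, 19.0 and 16.0 in knockdown. The knockdown libraries were all above scr, but knockdown 50-5 exceeded scr 25-2 by little and was below wt. The log2 fold change was 0.43 (standard error 0.205, 95% confidence interval -0.082 to 0.93, FDR 0.218, edgeR quasi-likelihood test, n = 3 against 2), and it was positive in all 14 alternatives and called in 0 of them, with an FDR of at least 0.0654. Without scr 25-2 it was 0.71, and without scr 50-1 it was 0.20.

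Neither CIP/KIP inhibitor among the members was called. Cdkn1a (chromosome 17, 29090979 to 29100722) had 85.7 RPKM in wt, 69.5 and 70.7 in scr, and 72.8, 99.9 and 72.8 in knockdown. The scr libraries differed 1.02-fold, and knockdown 50-2 alone was above wt. The log2 fold change was 0.21 (standard error 0.179, 95% confidence interval -0.23 to 0.65, FDR 0.464, edgeR quasi-likelihood test, n = 3 against 2), and 0.053 without knockdown 50-2.

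Cdkn1b (chromosome 6, 134920401 to 134925525) had 29.7 RPKM in wt, 29.0 and 33.2 in scr, and 32.6, 28.5 and 23.4 in knockdown. Its groups overlapped, and the log2 fold change was -0.16 (standard error 0.174, 95% confidence interval -0.59 to 0.27, FDR 0.580, edgeR quasi-likelihood test, n = 3 against 2). The third gene of this family, Cdkn1c, had 0 counts in every library. A rise of Cdkn1a above 1.57-fold and a fall of Cdkn1b below 0.666 of the scr level lay outside these 95% confidence intervals. The bounds belong to the main fit only. Without knockdown 25-3 the log2 fold change of Cdkn1b was -0.28 (standard error 0.181), and without knockdown 50-5 it was -0.042 (standard error 0.162).

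Across the 9 members tested, 6 had a positive and 3 a negative log2 fold change, with a median of 0.21. In 5 of them, Ccne1, Cdk6, Cdkn1a, Cdkn2a and Cdkn2b, every knockdown library was above both scr libraries, and in 0 was every knockdown library below. Of all genes tested, 25.7% had every knockdown library above both scr libraries and 24.5% had every one below. At an unadjusted p under 0.05 there were 2 members, Cdkn2a and Cdkn2b, beside 31.5% of all genes tested. In bulk RNA, fewer cells of a kind and less RNA per cell cannot be told apart, and a different share of cells in each cell cycle phase is included in these levels.

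**Figure D4:**
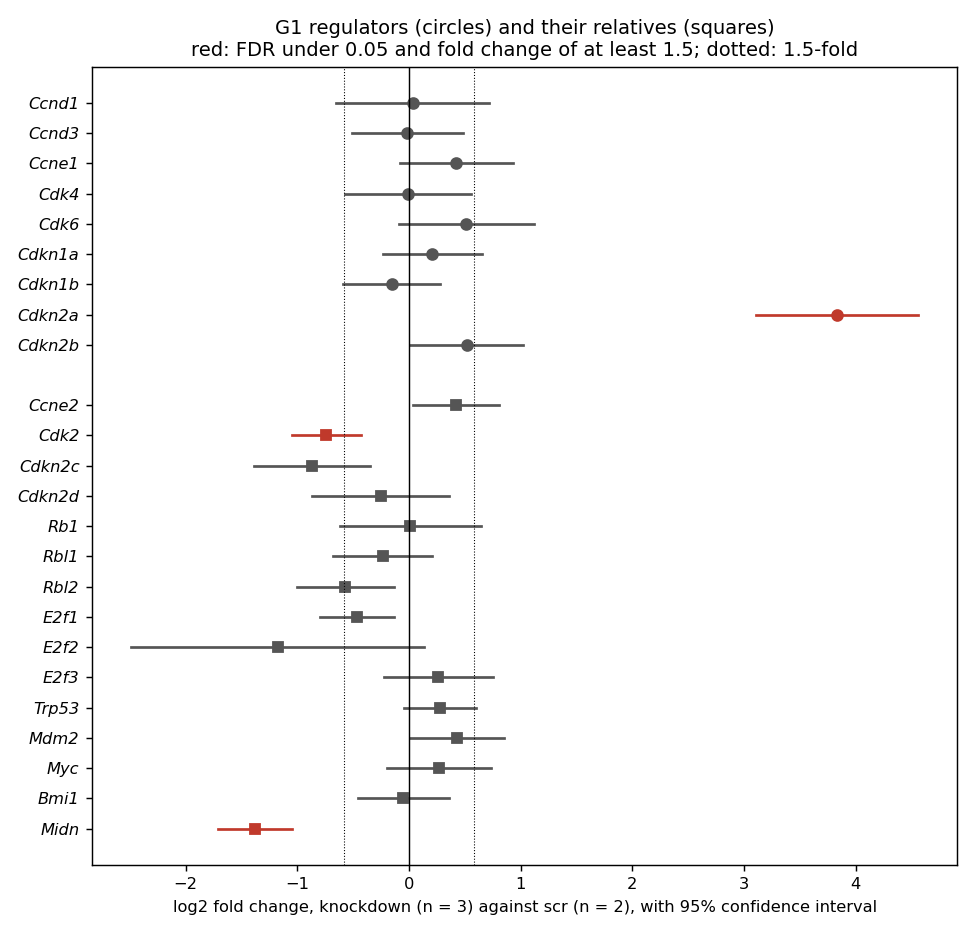
Log2 fold change of knockdown (3 libraries) against scr (2 libraries) with its 95% confidence interval (horizontal axis) for the 9 tested G1 regulators (circles) and for related genes and Midn (squares), red where called. Cdkn2a is the 1 red circle, at 3.83, and among the related genes Cdk2 (-0.74) and Midn (-1.38) are red.

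Around these members, a list of 52 further genes of the passage from G1 to S was followed, of which 50 were tested. In it, 1 gene was called upward and 3 downward, beside 5.4% and 5.23% of all genes tested, and the median log2 fold change was -0.066. Cdk2, the partner of cyclin E, fell from 47.0 and 41.9 RPKM in scr to 27.4, 25.8 and 27.4 in knockdown, with 43.8 in wt. The groups did not overlap, and the log2 fold change of -0.74 (standard error 0.124) passed the edgeR quasi-likelihood test (FDR 0.0239). Tfdp2, a dimerisation partner of E2F proteins, fell from 20.4 and 17.7 RPKM to 9.85, 7.24 and 7.24 (log2 fold change -1.25, FDR 0.0178, the same edgeR test). Its level in wt, 8.72 RPKM, lay among the knockdown values and not near scr. Btg2, an antiproliferative p53 target, fell from 32.7 and 34.2 RPKM to 16.1, 16.9 and 13.6 (log2 fold change -1.12, FDR 0.0117, the same edgeR test), with 31.2 in wt. Mycl, a member of the Myc family, had 0.371 and 0.240 RPKM in scr, 3.36, 1.66 and 1.54 in knockdown, and 0.586 in wt. It is the upward call of the list, but it passed the RPKM filter only through the knockdown libraries, where it was high, so its values are given as a description.

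The 3 downward calls depended on the libraries used, as did the calls among all genes. Leaving out knockdown 25-3, 50-2 or 50-5 lowered the latter from 1230 to 259, 131 or 346. The call of Cdk2 was lost when any 1 of the knockdown libraries was left out (FDR 0.0786 to 0.121), although its log2 fold change stayed between -0.82 and -0.64 in all alternatives. Tfdp2 was lost with wt added to the controls and without knockdown 50-2 or 50-5 (FDR at most 0.0904), with log2 fold changes from -1.41 to -0.95 over the alternatives. Btg2 was lost without knockdown 25-3 or 50-2 (FDR at most 0.0658), with log2 fold changes from -1.17 to -1.04 over the alternatives.

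The other close relatives did not pass the test. Ccne2, the second E-type cyclin, had 25.4 and 21.3 RPKM in scr and between 29.1 and 35.3 in knockdown (log2 fold change 0.42, FDR 0.132 in the edgeR quasi-likelihood test), but 44.5 in wt. Among the pocket proteins, Rb1 had a log2 fold change of 0.013, Rbl1 (p107) of -0.23 and Rbl2 (p130) of -0.57 (FDR 0.982, 0.415 and 0.0911, the same edgeR test). Of the E2F genes that drive the entry into S phase, E2f1 had -0.47, E2f2 -1.18 and E2f3 0.26 (FDR 0.0778, 0.194 and 0.409). E2f2 differed 3.48-fold between the scr libraries and was called without scr 25-2 (log2 fold change -1.80, FDR 0.0176), while without scr 50-1 its log2 fold change was -0.017. Myc, an inducer of D cyclins and of Cdk4, had 0.27 (FDR 0.371), and Bmi1, a Polycomb protein known as a repressor of Cdkn2a, had -0.052 (FDR 0.863), both in the same edgeR test.

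The p53 side of the pathway, which p19Arf feeds into, was examined in the same way. Trp53 had 94.8 and 98.2 RPKM in scr and 125.5, 107.5 and 121.4 in knockdown, with 81.2 in wt. The knockdown libraries were all above scr, by a log2 fold change of 0.28 (standard error 0.130) that did not pass the test (FDR 0.206, edgeR quasi-likelihood test). Mdm2, both a target and an inhibitor of p53, had 112 and 87.8 RPKM in scr, 147, 142 and 120 in knockdown, and 103 in wt (log2 fold change 0.43, FDR 0.153, the same edgeR test). Of 30 p53 target genes, Cdkn1a and Mdm2 included, all were tested, 0 were called upward and 1, Btg2, downward, and the median log2 fold change was -0.12, with 13 positive and 17 negative. Of all genes tested, 5.4% were called upward and 5.23% downward. DESeq2, which called 2322 of all genes, called 2 of the list upward, Phlda3 and Tnfrsf10b, and 2 downward, Btg2 and Ephx1, and those beyond Btg2 were named after their values were seen.

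The genes that E2F proteins switch on at the start of S phase, together with mitotic genes, formed a list of 40, all of them tested. The edgeR quasi-likelihood test called 0 of them, with 9 higher and 4 lower at an unadjusted p under 0.05, beside 10.6% of all genes called and 31.5% at that unadjusted p. Their median log2 fold change was 0.096, with 24 positive and 16 negative values, of which that of E2f2 (-1.18) was the lowest. DESeq2 called 2, named here after their values were seen. Mcm2, a subunit of the replicative helicase, had a mean of 45.3 RPKM in scr and 71.5 in knockdown, and Mki67, which encodes the proliferation marker Ki-67, had 120 and 80.2. Without scr 25-2 the quasi-likelihood test called 5 of the list, 1 upward and 4 downward, and 2273 of all genes.

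The spread between the 2 scr libraries bears on these values. One scr library was at least 1.5 times the other in 29.8% of the genes tested, and Ccnd1, Cdk4 and Cdk6 were among these. The log2 fold changes of Ccnd1, Ccnd3 and Cdk4 without scr 25-2 and without scr 50-1 lay on opposite sides of 0, whereas those of Ccne1, Cdk6, Cdkn1a, Cdkn2a and Cdkn2b stayed above 0 and that of Cdkn1b stayed below 0 with any 1 of the 5 libraries left out.

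**Figure D5:**
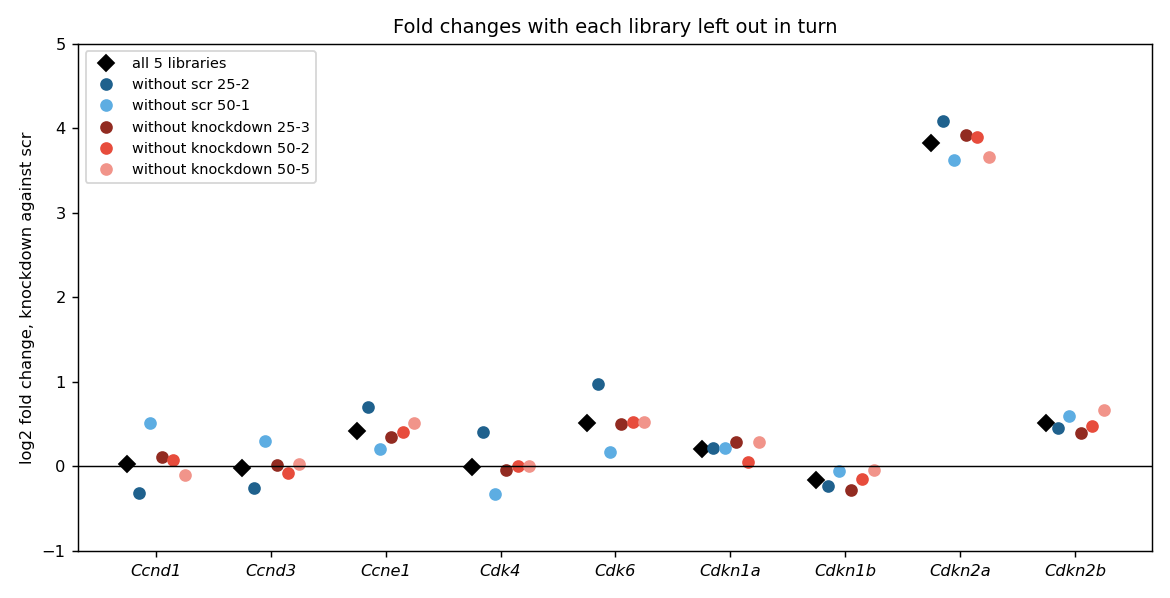
Log2 fold change of knockdown against scr (vertical axis) of the 9 tested genes with all 5 libraries (black diamonds) and with 1 library omitted at a time (circles, blue for scr and red for knockdown). Cdkn2a stays between 3.62 and 4.09, while Ccnd1 moves from -0.32 to 0.51 and Cdk4 from -0.32 to 0.41 with the scr library left out.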

How the data were processed

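RNA-seq was analysed in 6 libraries of Hepa1-6 cells. The authors aligned reads to mm10 with TopHat2, counted them per RefSeq gene with HTSeq (0.6.1p1 in the submitters' processing notes, another version in the study's methods), and deposited these counts without normalization. The deposited RPKM values were computed by the authors with TMM-scaled library sizes in edgeR. All 6 library columns of both tables were matched by name, and 0 were left unmatched.

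Counts of 3 knockdown and 2 scr libraries were compared with edgeR 4.0.16 in R 4.3.3 (TMM, quasi-likelihood test, Benjamini-Hochberg adjustment over the genes that exceeded 1 RPKM in 1 or more of these 5 libraries). A call required an FDR under 0.05 together with a fold change of 1.5 or more. The test was first run on simulated counts with set fold changes, as a check of the estimates. Differences between clones were not simulated. Standard errors follow from the F statistic of this test, as |log2 fold change| over the root of F. The common biological coefficient of variation was 0.272. The study's table of changed genes lists 4 of these libraries, which here are the alternative without knockdown 50-5. The wt library is given as values. Alternatives used DESeq2 1.42.0, limma 3.58.1 on log2(RPKM + 0.1) and log2(RPKM + 1), other scaling and filters, wt as a control, an added term for the labels' 25 or 50, and each library left out. The members and gene lists were chosen with earlier results of these data known. Named genes were the members, Midn, set relatives, the neighbours Mtap and Dmrta1, and the list genes called. Python 3.11.15 with matplotlib 3.10.9 was used for plots.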

Additional observations from a re-analysis of the deposited data

How the results depend on the processing

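The call of Cdkn2a was made in all 14 alternatives, and the other tested members were called in 0 of them, except Cdk6 without scr 25-2. With each library left out, the number of members called was 1 to 2, that of all genes called was 131 (without knockdown 50-2) to 2273 (without scr 25-2), beside 1230, and those of the G1/S, p53 target and E2F target lists were 0 to 6, 0 to 4 and 0 to 5, beside 4, 1 and 0. DESeq2 called 2322 genes (1167 up and 1155 down), 4 p53 targets and 2 E2F targets. The fit with a replicate block (the label number 25 or 50) called 807 genes (419 up and 388 down) and 2 p53 targets, and gave log2 fold changes of -0.004 for Ccnd1 and 0.091 for Cdk4, while Cdkn2a was still called. Between libraries that share the 25 or 50, deviations from the group means had a Pearson's r across genes of 0.003, -0.073 and 0.062. With 2 scr libraries, the deviations of 1 mirror those of the other, so these values cannot show whether the number pairs libraries. The main fit left the number out.

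Log2 fold changes near 0 changed sign. That of Ccnd3 was 0.020 with total counts as library sizes, 0.018 and 0.020 in limma on log2(RPKM + 1) and log2(RPKM + 0.1), and 0.007 with wt counted as a control. That of Cdk4 was 0.009, 0.047 and 0.047 with total counts and in both limma fits. With a library left out, the log2 fold changes ranged from -0.32 to 0.51 for Ccnd1, -0.26 to 0.30 for Ccnd3, -0.32 to 0.41 for Cdk4, 0.17 to 0.98 for Cdk6, -0.31 to 0.45 for Rb1 and -0.18 to 0.11 for Bmi1. On CPM, which ignore length, the mean share of Ccnd1 among D cyclins was 97.3% in scr and 97.4% in knockdown, and that of Cdk4 in Cdk4 and Cdk6 was 66.8% and 58.2%.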
